A study of Rattus norvegicus with 10 samples.

Results

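The genes described here are 10 markers of inhibitory interneurons and neuropeptide precursors: Penk, Npy, Sst, Cck, Vip, Tac1, Crh, Reln, Pvalb and Calb2. Every probe set annotated with exactly 1 of these symbols was taken, which gave 11 of the 31042 probe sets analysed, with 2 for Reln and 1 for each other gene. They were measured in hippocampal RNA on Affymetrix rat genome arrays, in 5 male Wistar rats given solid chow (C-group, C1 to C5) and 5 given powdered chow (P-group, P1 to P5). The diets were given for 8 days, after all rats had been accustomed to powdered feed from 3 weeks of age, and the labels put the rats at 4 weeks. The powdered diet lowers the need to chew, and the comparison asks which hippocampal mRNAs differ with it. No source used here says which rats shared a litter or a cage, or that arrays were run in batches. A value is a log2 expression level, and a difference is the mean of the C-group minus the mean of the P-group.

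Inhibitory interneurons release GABA onto the principal cells of the hippocampus, and their subclasses are told apart by the peptide or calcium-binding protein they make. Neuropeptides are cut from larger precursors, stored in dense core vesicles and released on strong activity to act on G protein-coupled receptors. Several of these genes are not confined to interneurons: Cck is also transcribed in pyramidal cells and Penk in dentate granule cells, and reelin is secreted by Cajal-Retzius cells as well as by interneurons. In whole hippocampus, fewer cells of a type and less RNA per cell cannot be told apart.

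Cck, Vip, Tac1 and Reln were high in the same few rats of both diets, while Npy was lowest in C1, C2 and P1 of these rats. P4 was among the highest rats for Cck, Vip and Tac1 and was also high for Npy. Promoter sequences of 4 of these 5 genes are shown because the mRNAs were positively or, with Npy, negatively correlated over the 10 rats. They come from the RefSeq promoter table of build GRCr8, which held 6 of the 10 genes, and each runs from 250 bases before to 50 bases after the listed start. Cck, Penk, Crh and Calb2 had no entry. Capitals mark matches to 3 motifs, searched on both strands. The core of the cAMP response element is TGACG, which the opposite strand spells as CGTCA. The E box searched for is CACGTG, its own reverse complement. The TATA box is TATAAA, which the opposite strand spells as TTTATA.
Vip, chr1:44470230-44470529, plus strand: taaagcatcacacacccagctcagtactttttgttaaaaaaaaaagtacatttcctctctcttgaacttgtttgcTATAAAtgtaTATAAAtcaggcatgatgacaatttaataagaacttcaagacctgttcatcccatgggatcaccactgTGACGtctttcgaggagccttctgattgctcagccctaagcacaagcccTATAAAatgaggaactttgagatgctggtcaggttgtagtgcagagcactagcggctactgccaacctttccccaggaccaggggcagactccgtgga
Tac1, chr4:36645333-36645632, plus strand: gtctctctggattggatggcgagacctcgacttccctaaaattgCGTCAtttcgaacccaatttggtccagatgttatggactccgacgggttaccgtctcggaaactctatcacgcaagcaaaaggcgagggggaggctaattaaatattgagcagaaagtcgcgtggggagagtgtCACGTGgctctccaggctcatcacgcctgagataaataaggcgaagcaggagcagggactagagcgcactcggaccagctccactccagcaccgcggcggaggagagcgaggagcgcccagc
Reln, chr4:13628318-13628617, plus strand: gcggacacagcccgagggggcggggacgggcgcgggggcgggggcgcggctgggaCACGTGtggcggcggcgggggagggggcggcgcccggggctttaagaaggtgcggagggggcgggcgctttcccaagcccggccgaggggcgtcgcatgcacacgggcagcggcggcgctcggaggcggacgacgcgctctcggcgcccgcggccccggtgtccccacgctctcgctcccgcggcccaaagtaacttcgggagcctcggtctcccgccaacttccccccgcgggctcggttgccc
Npy, chr4:80211861-80212160, plus strand: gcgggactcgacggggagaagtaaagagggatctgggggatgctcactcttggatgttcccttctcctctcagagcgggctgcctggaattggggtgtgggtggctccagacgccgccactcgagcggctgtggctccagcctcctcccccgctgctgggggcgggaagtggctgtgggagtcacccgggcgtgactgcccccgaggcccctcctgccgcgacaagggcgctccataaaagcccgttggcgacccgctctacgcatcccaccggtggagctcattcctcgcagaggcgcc

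The cAMP response element core lay 97 bases before the start in Vip and 206 bases before it in Tac1, and 21.2% of the 33469 promoters in the table hold one. The E box lay 195 bases before the start in Reln and 72 bases before it in Tac1, against 6.42% of all promoters. Vip held 3 TATA boxes, at 175, 165 and 48 bases before the start, and 14.2% of all promoters hold one. The Npy window held none of these motifs, and no motif was common to Vip, Tac1 and Reln. Of the others, Sst held both orientations of that core in 1 overlapping palindrome, and Pvalb held 1 copy of it. These are matches of letters only.

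The factor model behind the deposited values flattens a probe set almost completely where its probes do not vary together. Here a probe set is called variable when its SD over the 10 rats was above 0.01, as it was for 2904 of 31042 probe sets (9.36%). Of the 11 probe sets of these genes, 7 were variable (63.6%): those of Penk, Npy, Sst, Cck, Vip and Tac1 and 1 of Reln. Vip lay just inside this limit, with an SD of 0.0135, and Calb2 just outside it, with an SD of 0.0040. The other 4 probe sets give almost no information on differences between rats, whatever their level. Rat C1 stood apart over the series, with the highest value in 1553 (53.5%) and the lowest in 641 (22.1%) of the variable probe sets. Genes that mark hippocampal principal neurons were measured for 14 of 16, among them Prox1 of dentate granule cells (9.53 ± 0.26 in the C-group, 9.55 ± 0.12 in the P-group) and Wfs1 of CA1 pyramidal cells (8.46 ± 0.53 in the C-group, 8.52 ± 0.20 in the P-group; SD, n = 5 each).

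No gene of the set passed limma with Benjamini-Hochberg adjustment over all probe sets (0 of 11, background 0.0% of 31042), and none had an unadjusted limma p under 0.05 (background 2.95%). Rank products, which ranks the 25 differences between rats of the 2 groups and takes the percentage of false predictions as the false discovery rate (FDR), called Reln and Penk higher in the C-group. That is 2 of 11, against 2.0% of all probe sets. All called probe sets were variable ones, and among variable probe sets 21.4% were called higher, against 2 of the 7 here. None of the set was called lower (background 0.396% of all probe sets and 4.24% of variable ones). In all 7 variable probe sets the values of the 2 groups overlapped.

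**Figure D1:**
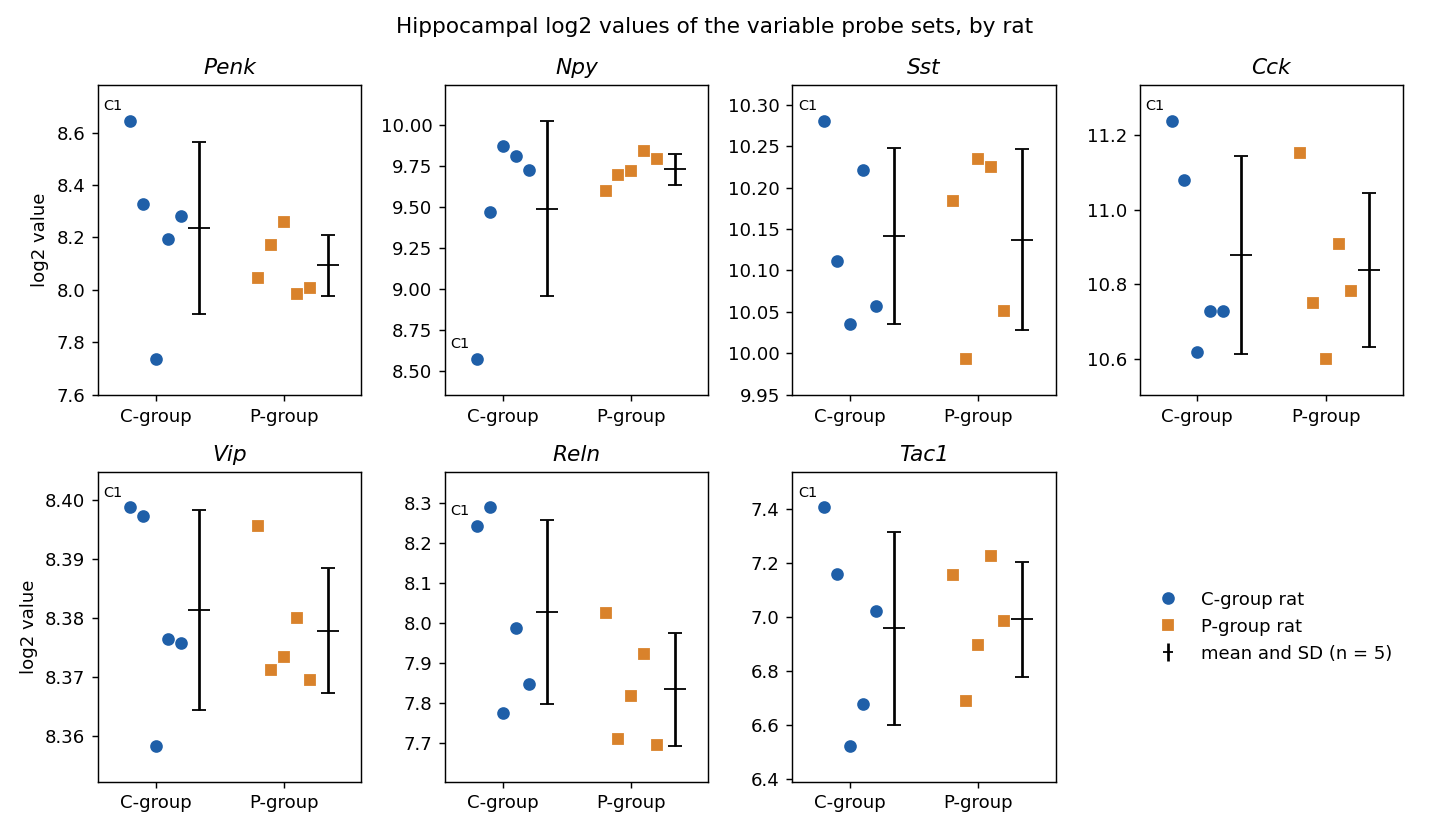
Log2 values (y axis) of the 7 variable probe sets in each rat, C-group as blue circles and P-group as orange squares, in the order of replicate number, with the mean and SD of each group (n = 5) beside them. The groups overlap in every panel, and C1 is the highest rat for Penk, Sst, Cck, Vip and Tac1 and the lowest for Npy.

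Reln encodes reelin, a secreted glycoprotein that guides neuronal layering and later modulates synapses. Its variable probe set (1369093_at) read 8.24, 8.29, 7.77, 7.99 and 7.85 in C1 to C5, against 8.02, 7.71, 7.82, 7.92 and 7.69 in P1 to P5. C1 and C2 lay above every P-group rat, and the other 3 C-group rats lay within the P-group's range. The C-group averaged 8.03 ± 0.23 and the P-group 7.83 ± 0.14 (SD, n = 5 each), a difference of 0.19 ± 0.12 log2 units (SE; 95% interval -0.07 to 0.46, 1.14-fold). Rank products called Reln higher at an FDR of 0.0420, whereas the limma adjusted p was 0.927 and the exact permutation p was 0.159 (two-sided). The difference stayed positive without any single rat, between 0.13 and 0.26, and was 0.14 without C1. The second Reln probe set (1373957_at) was constant at 9.53 in both groups, with an SD of 0.00016, and so neither repeats the difference nor goes against it.

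Penk encodes proenkephalin, the precursor of the enkephalin opioid peptides. It (1367949_at) read 8.65, 8.33, 7.74, 8.19 and 8.28 in C1 to C5, against 8.05, 8.17, 8.26, 7.99 and 8.01 in P1 to P5. The C-group held the 3 highest values and also the lowest one, that of C3. The C-group averaged 8.24 ± 0.33 and the P-group 8.09 ± 0.12 (SD, n = 5 each), a difference of 0.14 ± 0.15 (SE; 95% interval -0.20 to 0.49, 1.10-fold). Rank products called it higher at an FDR of 0.0473, and the limma adjusted p was 0.927 (exact permutation p = 0.389, two-sided). Without C1 the difference was 0.04, and without any single rat it ran from 0.04 to 0.27.

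Both calls lay close to the FDR threshold of 0.05 and were lost in most of the fits that left out 1 rat. Neither gene was called without C1, C2, C4, C5, P2 or P5, where the FDR was 0.181, 0.150, 0.0953, 0.147, 0.0502 and 0.0772 for Penk and 0.132, 0.198, 0.0942, 0.0549, 0.0887 and 0.0938 for Reln. Without P1 or P4 only Reln was called, without P3 only Penk, and without C3 both were called with Npy as a lower gene (FDR 0.0470). The number of calls also changed over the whole series. With all rats 621 of 31042 probe sets were called higher, against 76 without C1, 116 without C2 and 233 without C4. It was 444 without C5, 528 without P2 and 325 without P5. It was 500 without C3, 789 without P1, 707 without P3 and 414 without P4. When only the 2904 variable probe sets were ranked, the estimated FDR was above 1 for both genes (1.10 for Penk, 1.07 for Reln), and 9 probe sets in all were called higher.

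Npy encodes neuropeptide Y, a peptide of many hippocampal interneurons that dampens glutamate release. It (1387154_at) read 8.57, 9.47, 9.87, 9.81 and 9.73 in C1 to C5, against 9.60, 9.70, 9.72, 9.84 and 9.79 in P1 to P5. C1 was the lowest rat by far, C2 came next, and the other 8 rats lay between 9.60 and 9.87. The means were 9.49 ± 0.54 in the C-group and 9.73 ± 0.095 in the P-group (SD, n = 5 each), a difference of -0.24 ± 0.24 (SE; 95% interval -0.78 to 0.30, 0.847-fold; limma adjusted p = 0.927; exact permutation p = 0.468, two-sided). Without C1 the C-group averaged 9.72 and the difference was -0.0091. The mean log2 level of the 10 variable marker genes of hippocampal principal neurons was also lowest in C1 and C2. It was 9.52 in C1, 9.50 in C2 and 9.68 to 9.81 in C3 to C5, against 9.61 to 9.77 in the P-group. Single markers differed in this: Prox1 (9.13) and Wfs1 (7.63) were lowest in C1, whereas Bok (9.78) and Fibcd1 (8.33) were highest in C1. Of these markers rank products called Neurod6 lower (-0.25 ± 0.15, SE; FDR 0.0131) and Zbtb20 higher by 3 of its probe sets, with 0 past limma. Their part in the Npy values was not tested.

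Sst encodes somatostatin, the peptide of interneurons that target the dendrites of pyramidal cells. It (1367762_at) read 10.28, 10.11, 10.04, 10.22 and 10.06 in C1 to C5, against 10.18, 9.99, 10.23, 10.22 and 10.05 in P1 to P5. The groups spanned nearly the same range, and the highest and lowest rats (C1 and P2) were 0.288 apart. The difference was 0.0040 ± 0.066 (SE; 95% interval -0.15 to 0.15; limma adjusted p = 0.994), so that a shift of more than 0.15 in either direction lies outside the interval.

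Cck encodes cholecystokinin, which marks a class of basket cells. It (1387032_at) read 11.24, 11.08, 10.62, 10.73 and 10.73 in C1 to C5, against 11.15, 10.75, 10.60, 10.91 and 10.78 in P1 to P5. C1, P1 and C2 were the 3 highest rats, and P3 and C3 the lowest. The difference was 0.04 ± 0.15 (SE; 95% interval -0.29 to 0.37; limma adjusted p = 0.967), and it changed sign without C1 (-0.05).

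Tac1 encodes the precursor of substance P and neurokinin A. It (1369309_a_at) read 7.41, 7.16, 6.52, 6.68 and 7.02 in C1 to C5, against 7.16, 6.69, 6.90, 7.23 and 6.99 in P1 to P5. The C-group held both the highest rat, C1, and the lowest, C3. The difference was -0.03 ± 0.18 (SE; 95% interval -0.45 to 0.38; limma adjusted p = 0.979).

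Vip encodes vasoactive intestinal peptide, made by interneurons that mostly inhibit other interneurons. It (1377146_at) read 8.399, 8.397, 8.358, 8.377 and 8.376 in C1 to C5, against 8.396, 8.371, 8.373, 8.380 and 8.370 in P1 to P5. The order of the rats resembled that of Cck, but the whole range was 0.0405 log2 units. The difference was 0.0034 ± 0.0087 (SE; limma adjusted p = 0.956).

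**Figure D2:**
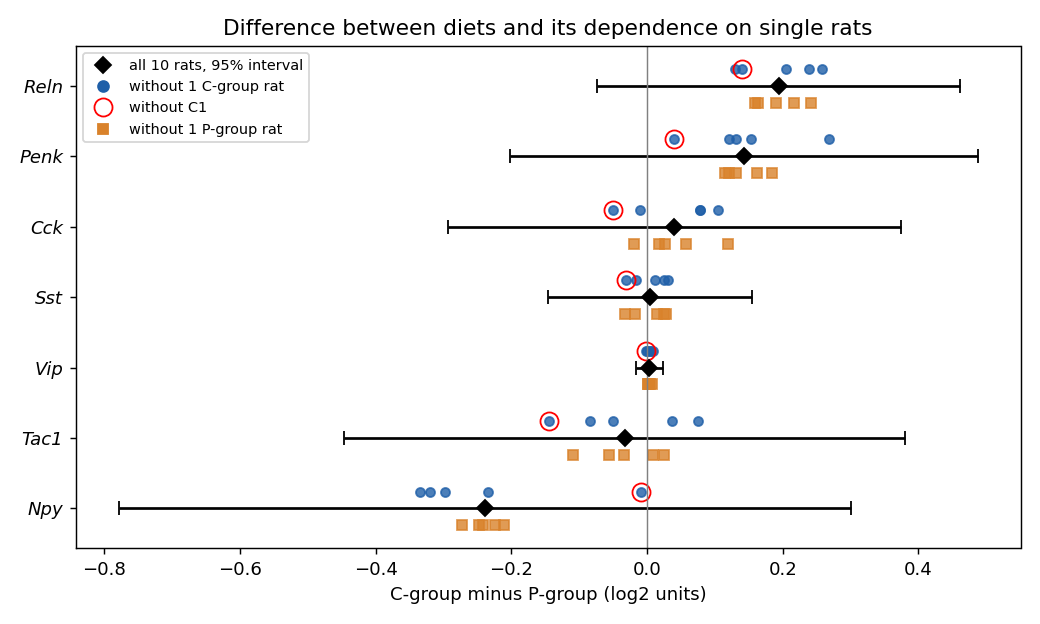
Difference between the diets, C-group minus P-group in log2 units (x axis), for the 7 variable probe sets, with the value over all 10 rats and its 95% limma interval (black), the values without 1 C-group rat (blue circles, C1 ringed in red) and without 1 P-group rat (orange squares). Every interval includes 0, and leaving out C1 moves Npy to -0.0091 and Penk to 0.04.

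The remaining probe sets had an SD below the limit of 0.01. Pvalb (1370214_at), for parvalbumin, the calcium-binding protein of fast-spiking basket cells, lay at 8.52 in both groups with an SD of 0.00011. Crh (1369303_at), for corticotropin-releasing hormone, a stress peptide also made by hippocampal interneurons in young rodents, lay at 6.45 in both groups with an SD of 0.00027. Calb2 (1387133_at), for calretinin, the calcium-binding protein of interneurons that target other interneurons, ran from 8.05 to 8.06 and differed by -0.0020 ± 0.0025 (SE). In these deposited values a constant level does not show that the mRNA was equal in the rats.

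Several genes of the set varied together over the rats of both diets. Over the 10 rats, Vip and Reln had Pearson's r = 0.89 and Spearman's rho = 0.94 (permutation p adjusted over 28 pairs, 0.00784 for r and 0.0036 for rho), and r was 0.76 without C1 and C2, the rats farthest from the median of Vip. Cck and Vip had r = 0.92 and rho = 0.75 (adjusted permutation p = 0.00784 and 0.0988), with r = 0.86 without C1 and P1. Cck and Tac1 had r = 0.82 and rho = 0.83 (adjusted permutation p = 0.0200 and 0.0678), with r = 0.71 without C1 and P1. C1, C2, P1 and P4 held the 4 highest values of Cck, Vip and Tac1, and C3 held the lowest of Vip and Tac1. Reln was highest in C2, C1 and P1.

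Npy had a negative r in all 6 of its pairs, from -0.80 to -0.46, while the 15 pairs without Npy had r from 0.43 to 0.92. Without C1 these 15 values ran from 0.15 to 0.90, and the 6 with Npy from -0.82 to 0.02. Without C1 and C3, the rats farthest from the median of Penk, r was -0.13 between Penk and Sst, -0.24 between Penk and Cck and -0.26 between Penk and Tac1. For Penk and Npy r was -0.80 and rho -0.76 (adjusted permutation p = 0.0157 and 0.0988), and r was -0.50 without C1 and C3, so that this relation rests in part on those 2 rats. For Npy and Sst r was -0.46 over 10 rats and 0.02 without C1. C1 and C2 lay farthest from the median of Npy. Without both, r with Npy was -0.70 for Vip, -0.54 for Cck, -0.36 for Tac1, -0.24 for Reln and -0.03 for Sst. Of all 28 pairs, 11 had an adjusted p under 0.05 by r and 1, Vip and Reln, by rho. That pair and the pair with the highest r, Cck and Vip, both include Vip. The whole range of Vip was 0.0405 log2 units, with an SD of 0.0135, just above the limit of 0.01 for a variable probe set. All genes of a rat come from 1 array, and the part of array or dissection differences in these relations was not tested.

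**Figure D3:**
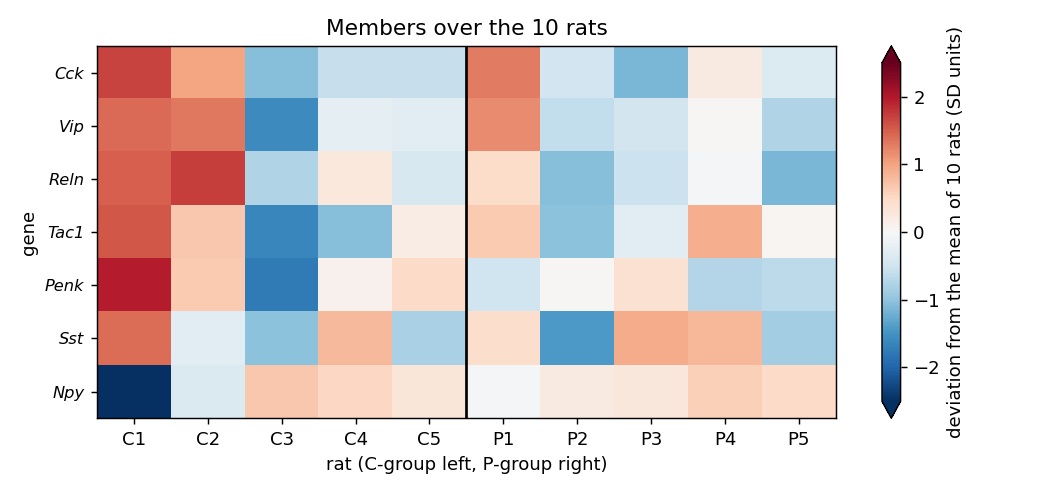
Deviation of each rat (x axis) from the mean of the 10 rats, in units of the SD over 10 rats, for the 7 variable genes (y axis), with the C-group left of the line and the P-group right of it. Cck, Vip, Reln and Tac1 are high in C1, C2 and P1, Npy is lowest in C1, and the darkest colors stand for that deviation or more. The SD of Vip was only 0.0135 log2 units.

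The genes whose pattern over the 10 rats was most like that of each member were named by the highest Pearson's r among variable probe sets, as a description. Cck was most like Tacr3, the receptor of neurokinin B (r = 0.97), Gda (0.97) and Pgrmc1 (0.95). Vip was most like Sstr1, a somatostatin receptor (0.98), Fxyd6 (0.96) and Lrrc4c (0.95). Tac1 was most like another probe set of Gda (0.94), Nnat (0.93) and Calb1, the calcium-binding protein calbindin (0.93). Reln was most like Mdh1 (0.93), Ntng1 (0.93) and Tenm2 (0.92). For these 4 members all the r values lay between 0.90 and 0.97 without C1.

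Npy was most like Stxbp6 (r = 0.995, and 0.95 without C1), Rasl11b (0.994) and Zfp260 (0.993). Penk was most like Igfbp7 (0.97), Fstl1 (0.96) and Pbxip1 (0.96). Sst had the loosest matches, Ubl5 (0.85), Nsg2 (0.84) and Rpl19 (0.81).

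Penk also followed the choroid plexus, the secretory tissue of the ventricle that lies beside the hippocampus. Of 18 choroid plexus genes 16 were measured and 15 were variable. All 15 were called higher in the C-group by rank products, beside 21.4% of all variable probe sets, with 0 past limma. Without C1, 8 of them were called. Their mean log2 level was 9.10 in C1, 8.53 in C2, 6.97 in C3, 6.79 in C4 and 8.73 in C5, against 6.65 in P1, 7.01 in P2, 8.68 in P3, 6.85 in P4 and 7.84 in P5. The 4 rats with the highest choroid plexus level, C1, C5, P3 and C2, were the 4 with the highest Penk.

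Penk and the choroid plexus mean had r = 0.74 and rho = 0.70 (adjusted permutation p = 0.0285 and 0.144), with r = 0.68 without C1 and C3. Cck had r = 0.17 with it, Sst 0.18, Vip 0.32, Reln 0.35, Tac1 0.47 and Npy -0.58, the last being -0.11 without C1 and C2. The part of choroid plexus RNA in the Penk difference was not tested. Of 9 astrocyte genes measured 5 were variable, and rank products called 4 of these higher (Aqp4, Gja1, Slc1a3 and Gjb6), beside 21.4% of all variable probe sets, with 0 past limma. The fifth, Gfap, averaged 11.36 ± 0.37 in the C-group and 11.51 ± 0.046 in the P-group (SD, n = 5 each) and was not called. The mean level of the 5 genes lay between 9.58 and 9.98 in the C-group and between 9.37 and 9.81 in the P-group. Without C1, none of the 5 was called. The called probe sets of Aqp4, Gja1 and Slc1a3 were not the brightest of their gene. No marker of these lists was listed at 0.

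**Figure D4:**
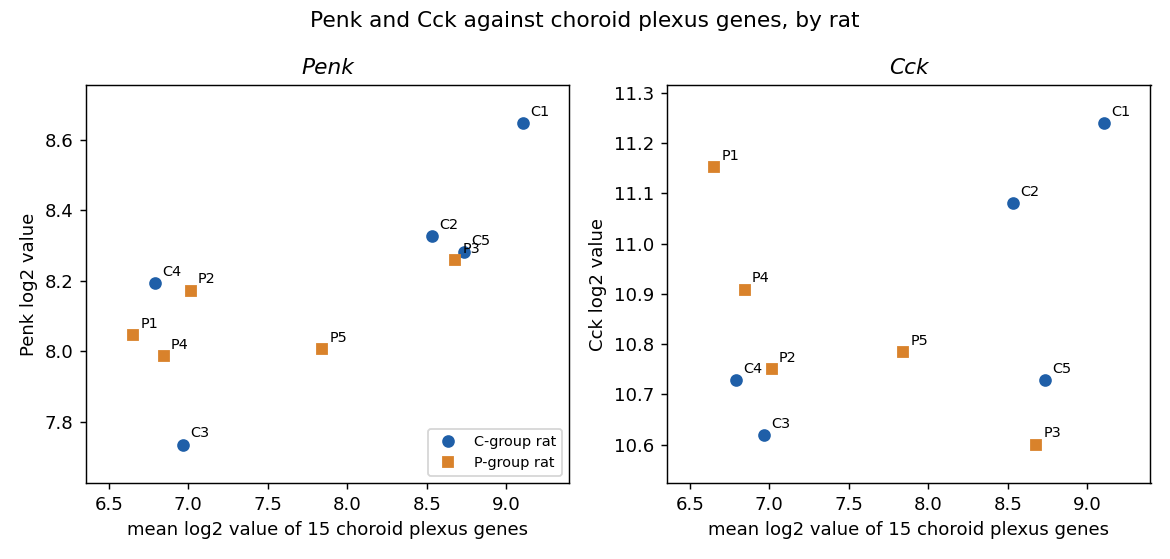
Log2 value of Penk (left) and Cck (right) in each rat (y axis) against the mean log2 value of 15 choroid plexus genes (x axis), C-group as blue circles and P-group as orange squares. The 4 rats at 8.53 or above on the x axis have the highest Penk values, whereas Cck is high in P1, the rat with the lowest choroid plexus level.

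Genes that mark GABAergic neurons in general were measured for 6 of 11, of which 3 were variable. Rank products called 1 of these, Gad2, higher, beside 21.4% of all variable probe sets. Gad2 encodes a GABA-synthesizing enzyme and read 8.21, 7.65, 7.74, 7.66 and 7.71 in C1 to C5, against 7.80, 7.64, 7.67, 7.48 and 7.32 in P1 to P5. C1 alone lay above the P-group. The difference was 0.21 ± 0.13 (SE; limma adjusted p = 0.927; FDR 0.0369) and 0.11 without C1, where it was no longer called. Slc32a1, the vesicular GABA transporter, differed by -0.02 ± 0.087 and Dlx1, a transcription factor of interneuron lineages, by -0.04 ± 0.10 (SE). Without C1, Dlx1 was called lower in the C-group (FDR 0.0446).

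Markers of interneuron subclasses other than the members were measured for 20 of 23, with 7 variable and none called in either direction. These 7 include Prox1, which is also counted among the variable principal neuron genes and is not confined to interneurons. The median difference of the 7 was 0.03, against 0.07 over all variable probe sets. Kcnc2, a potassium channel of fast-spiking cells, differed by 0.16 ± 0.14, and Calb1 by 0.03 ± 0.14 (SE). The probe set of Kcnc2 was not the brightest of its gene. Of 18 neuropeptide receptor genes measured, 3 were variable and none was called. Tacr3 differed by 0.04 ± 0.27, Sstr1 by 0.01 ± 0.19 and Sstr2 by -0.05 ± 0.20 (SE), with Sstr2 lowest in C1 (7.20, against 7.74 to 8.25 in the other 9 rats). Without C1, Tacr3 was called lower in the C-group (FDR 0.0195), with a difference of -0.15.

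In the reelin pathway all 8 listed genes were measured and 2 had a variable probe set. Both were called higher in the C-group, beside 21.4% of all variable probe sets, with 0 past limma. Dab1, the adaptor that reelin receptors phosphorylate, read 7.89, 7.87, 7.29, 7.12 and 7.37 in C1 to C5, against 7.83, 7.41, 7.13, 6.59 and 7.41 in P1 to P5. P1 was nearly as high as C1 and C2, and P4 was the lowest rat. The difference was 0.23 ± 0.25 (SE; FDR 0.0316). Fyn, the kinase that phosphorylates it, differed by 0.19 ± 0.13 (SE; FDR 0.0466). Neither was called without C1, and both come from probe sets that are not the brightest of their gene.

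Of 30 other neuropeptide precursors 27 were measured and 5 were variable. Rank products called 2 higher and 2 lower, beside 21.4% and 4.24% of all variable probe sets, with 0 past limma. Cartpt, the precursor of the CART peptides, read 7.14, 6.92, 7.77, 7.95 and 7.65 in C1 to C5, against 7.26, 7.70, 7.75, 8.38 and 8.17 in P1 to P5. P4 and P5 were the 2 highest rats and C2 the lowest, and the difference was -0.37 ± 0.27 (SE; FDR 0.0163) and -0.28 without C1. Nmb, the neuromedin B precursor, differed by -0.30 ± 0.24 (SE; FDR 0.0249), and by -0.10 without C1. Grp, the gastrin-releasing peptide precursor, differed by 0.11 ± 0.27 (SE; FDR 0.0313). Without C1, Cartpt stayed called (FDR 0.0091), while Nmb (0.0646) and Grp (0.0998) were not.

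Nts, the neurotensin precursor, read 7.75, 8.57, 9.90, 9.68 and 9.65 in C1 to C5, against 9.16, 9.30, 9.62, 9.53 and 9.04 in P1 to P5. Rank products called it higher (FDR 0.0332), while its mean difference was -0.22 ± 0.41 (SE). C3, C4 and C5 exceeded every P-group rat, and C1 and C2 were the 2 lowest rats. Without C1 the mean difference of Nts was 0.12 and its FDR 0.0469. Of the genes that process peptides or form dense core vesicles 14 of 15 were measured, and the single variable one, Pcsk1n, the precursor of the proSAAS peptides, was not called (0.08 ± 0.060, SE).

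**Figure D5:**
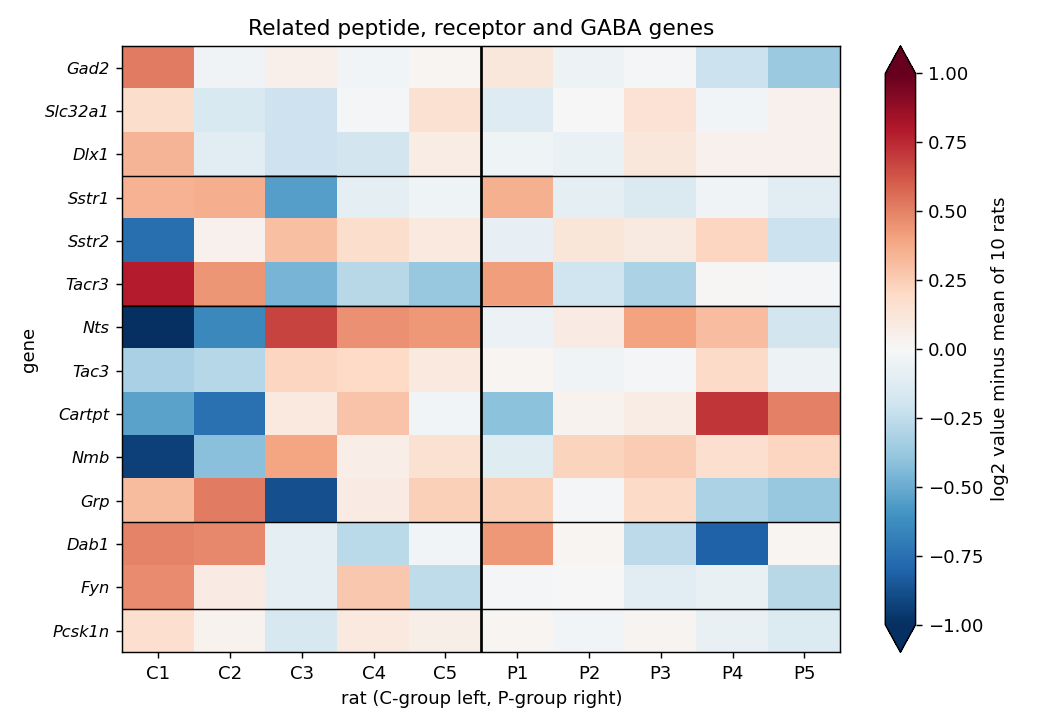
Log2 value of each rat (x axis) minus the mean of the 10 rats for the variable genes (y axis) of GABAergic neurons, peptide receptors, other neuropeptides, the reelin pathway and peptide processing, from top to bottom, with the C-group left of the line and the P-group right of it. Tacr3 and Sstr1 are high in C1, C2 and P1, while Nts and Nmb are lowest in C1, and the darkest colors stand for that value or beyond.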

How the data were processed

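Hippocampal RNA of 5 C-group and 5 P-group rats was hybridized to 1 array each. The log2 values deposited by the authors had been normalized and summarized by them (qFARMS, run in R), and were used as they stand. The scanner files were not used here. Values of 31042 probe sets were analysed after 57 control probe sets were left out, and there were 0 columns of other samples. Probe sets were named from the platform annotation (20826 with exactly 1 symbol), and no genome build is given for them. Arrays have no read depth, so that precision rests on the 5 rats of a group.

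Standard errors, intervals and p-values with Benjamini-Hochberg adjustment over all probe sets came from limma 3.58.1 (R 4.3.3; lmFit, then eBayes), at a threshold of 0.05. Rank products, which the study used, was run with numpy 2.4.6, scipy 1.17.1 and pandas 2.3.3 under Python 3.11.15 from 25 unpaired differences with 100 permutations of values within arrays, at an FDR of 0.05 per direction. Whether the authors paired rats is not given in the sources used here. The FDR is an estimate and can exceed 1. The exact permutation test covered 252 assignments (smallest p 0.00794). Correlations were tested with 100000 resamples and adjusted over 28 pairs. Of these methods, only limma and rank products were tested on simulated data.

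Every member probe set is named. Of the gene lists, genes called by either test and up to 4 variable ones with the smallest limma p could be named. Where a list gene had several probe sets, the brightest variable one was taken, with any other that was called. The members and lists were chosen with earlier results of these data known. Lists of neurons of the striatum, thalamus, cortex and hypothalamus, and of pineal, oligodendrocyte, microglial and blood cells were counted too. Alternatives changed the pairing, the normalization, the filters, the variance model, the random draw and the rats used.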

Additional observations from a re-analysis of the deposited data

Results flagged for a closer look

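In groups of 5 rats, the highest or lowest rat was compared with its nearest neighbor, as the gap divided by the range of the group, against Dixon's critical value at the 95% level. Of 60 groups of members and related genes, 7 held a rat that lay apart, and chance gives about 1 in 20 groups. No member was among them, although C1 came close for Npy, with a ratio of 0.691 in the C-group.

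Gad2 had C1 as its high C-group rat (ratio 0.835). Sstr2 had C1 as its low C-group rat (0.755). Satb1, a chromatin organizer of interneurons, had C3 as its low C-group rat (probe set 1379626_at, 0.720). P1 lay apart in the P-group for probe sets of 3 genes, high for Sstr1 (0.778) and for the cannabinoid receptor gene Cnr1 (probe set 1387674_at, 0.835) and low for Nmb (0.761). The brighter probe set of Cnr1 (1369677_at) had P4 as its high P-group rat, with a ratio of 0.021. Tac3 had P4 as its high P-group rat (0.712).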

How the results depend on the processing

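No member passed limma under any alternative: median-centered arrays, quantile normalization, a replicate block, eBayes with a trend, only variable or only brighter probe sets, and without any 1 rat. The number of members called by rank products was 2 over all rats and ran from 0 to 3 without 1 rat. It was 0 when only variable probe sets were ranked and 0 with only brighter probe sets (FDR 0.107 for Penk and 0.102 for Reln). With 3 other random draws, chosen after seeing the data, it was 2 each time. Over all probe sets and rats, 621 were called higher and 123 lower. Without 1 rat these counts ran from 76 to 789 and from 8 to 219. They were 9 and 0 with only variable probe sets, and 159 and 27 with only brighter ones.

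Of 98 alternative values of the 7 differences, 77 kept their sign and 21 did not. Penk, Reln and, apart from the medians, Npy kept theirs. Group medians gave 0.0040 for Npy, -0.072 for Sst, -0.055 for Cck and 0.038 for Tac1. Median-centering gave -0.0022 for Sst and -0.0028 for Vip, and quantile normalization -0.0033 and -0.0052. Without 1 rat the differences ran from -0.050 to 0.12 for Cck, -0.032 to 0.030 for Sst, -0.14 to 0.076 for Tac1, -0.00092 to 0.0092 for Vip and -0.33 to -0.0091 for Npy. None of these 5 differences passed limma. Rank products called only Npy among them, as lower, and only without C3 (FDR 0.0470) or with the replicate block (FDR 0.0152). The cause of the changes of sign was not tested.

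Rats of the 2 groups share replicate numbers in the labels. Deviations from the group means over variable probe sets correlated by 0.277, -0.0112, -0.389, 0.485 and 0.451 for numbers 1 to 5, and only C1 and C4 correlated best with their own number, so the numbers were not taken as pairs. With the replicate block, rank products called 3 members, with Npy lower at an FDR of 0.0152, and 914 probe sets higher and 337 lower in all, against 621 and 123 without it.

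Precision is limited by 5 rats in each group, and 4 of the 11 probe sets had almost no variation in the deposited values. No other summarization was run, and the cause of this was not tested. Intensities over background were not analysed here.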

Other observations

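Among the lists of other cells, pineal and photoreceptor genes stood out in 1 rat. Of 14 listed, 13 were measured and 11 were variable. Of these 11, 6 (Pde6g, Pdc, Gngt1, Gnb3, Aipl1 and Mpp4) were called lower by rank products, beside 4.24% of all variable probe sets, with 0 past limma. Their mean log2 level lay between 6.19 and 6.27 in the C-group, against 8.70 in P2 and between 6.18 and 6.23 in the other 4 P-group rats.

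Striatal (12 of 13 measured), thalamic and habenular (8 of 11), oligodendrocyte (9 of 10), microglial (10 of 10) and endothelial and blood (8 of 10) genes had no gene called in either direction. Of cortical and subicular genes (10 of 12 measured) Nts was called, and of amygdalar and hypothalamic genes (11 of 14) Cartpt. Of hippocampal principal neuron genes, Neurod6 was called lower (10.40 ± 0.33 in the C-group, 10.65 ± 0.059 in the P-group; SD, n = 5 each). It read 9.82 in C2, against 10.435 to 10.63 in the other C-group rats and 10.59 to 10.72 in the P-group. Zbtb20 was called higher by 3 of its probe sets, but not by its brightest one, which differed by -0.02 ± 0.13 (SE). Without C1, Neurod6 stayed called (FDR 0.0014), no probe set of Zbtb20 was, 5 of the 6 pineal genes were, and the microglial gene C1qa was called lower.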
